A study of Mus musculus with 6 samples.

Results

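Hyaluronan-binding and cross-linking matrix proteins were followed in mouse cumulus cells before and after the ovulatory hormone. The group was chosen by name, with earlier results of these data known. It holds 10 genes, all of which were measured, among 18194 genes in all. They are Ptx3, Tnfaip6, Vcan, Cd44, Hapln1, Sdc4, Fn1, Cemip2, Hyal2 and Itih5. Every probe set that the platform's table assigns to one of these symbols alone was used, 30 probe sets together.

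Wild-type female mice (the labels name no strain) received 5 IU of eCG, which makes follicles grow, at 21 days of age, and cumulus cells were taken at 46 h without hCG (hCG-0h) or with a further 5 IU of hCG for 6 h (hCG-6h). Each group holds 3 samples, each of the cumulus cells of 50 cumulus-oocyte complexes on 1 Affymetrix array, and the medium used to isolate the cells held 5 µM milrinone, an inhibitor of the oocyte phosphodiesterase PDE3. All labels name cumulus cells, except the RNA protocol, which names the whole complexes. The characteristics give an age of 23 days, also for the mice that had hCG. The descriptions of hCG-6h samples 2 and 3 read 7 h and 8 h against 6 h in their titles, and the titles were followed. The labels do not say that samples are separate animals, so p-values measure the spread between these samples, which may be technical. There was no group kept without hCG for the added 6 h, so the hormone and the time cannot be told apart.

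Hyaluronan is a long sugar chain that cumulus cells extrude after the ovulatory surge, and a set of proteins turns it into an elastic mass around the oocyte. TSG-6, the product of Tnfaip6, moves heavy chains of the serum protein inter-alpha-trypsin inhibitor onto hyaluronan, and the pentraxin PTX3 forms multimers that tie such chains together. Versican (Vcan) and the link protein HAPLN1 bind hyaluronan through Link modules, CD44 is its main receptor on the cell surface, and HYAL2 and CEMIP2 degrade it. Female mice without Ptx3 or without Tnfaip6 are known to form an unstable cumulus matrix.

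The 250 bases before the gene start are shown for the members that rose most and for the one that fell, since these are the genes that moved furthest in these arrays. The RefSeq promoter table (GRCm38.p6) held 8 of the 10 members, all but Fn1 and Cemip2. The Ptx3 window is chr3:66219637-66219886 on the plus strand, that of Tnfaip6 is chr2:52037863-52038112 on the plus strand, and that of Cd44 is chr2:102901666-102901915 on the minus strand. The Vcan window is chr13:89742513-89742762 on the minus strand and that of Itih5 is chr2:10153293-10153542 on the plus strand. Capitals mark matches to the motifs described after the sequences, written 5′ to 3′ on the gene's strand.
Ptx3: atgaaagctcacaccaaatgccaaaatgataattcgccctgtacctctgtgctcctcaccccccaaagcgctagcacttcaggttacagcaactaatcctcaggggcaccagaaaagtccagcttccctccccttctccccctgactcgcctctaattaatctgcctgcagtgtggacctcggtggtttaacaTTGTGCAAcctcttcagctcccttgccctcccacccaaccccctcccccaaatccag
Tnfaip6: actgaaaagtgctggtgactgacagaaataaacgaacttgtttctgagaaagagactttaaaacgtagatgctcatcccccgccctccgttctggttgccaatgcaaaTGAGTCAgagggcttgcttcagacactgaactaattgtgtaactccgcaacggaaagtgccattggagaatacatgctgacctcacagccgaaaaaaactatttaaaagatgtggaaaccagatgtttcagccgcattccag
Cd44: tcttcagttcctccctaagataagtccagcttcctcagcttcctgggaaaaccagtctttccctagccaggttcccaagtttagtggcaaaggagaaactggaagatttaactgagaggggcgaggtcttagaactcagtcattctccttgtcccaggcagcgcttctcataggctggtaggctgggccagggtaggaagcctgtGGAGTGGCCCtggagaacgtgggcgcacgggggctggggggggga
Vcan: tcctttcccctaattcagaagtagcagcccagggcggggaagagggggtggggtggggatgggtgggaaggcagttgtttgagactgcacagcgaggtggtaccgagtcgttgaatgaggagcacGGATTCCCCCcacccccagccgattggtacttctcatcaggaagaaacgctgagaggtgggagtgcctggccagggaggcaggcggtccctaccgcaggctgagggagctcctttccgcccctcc
Itih5: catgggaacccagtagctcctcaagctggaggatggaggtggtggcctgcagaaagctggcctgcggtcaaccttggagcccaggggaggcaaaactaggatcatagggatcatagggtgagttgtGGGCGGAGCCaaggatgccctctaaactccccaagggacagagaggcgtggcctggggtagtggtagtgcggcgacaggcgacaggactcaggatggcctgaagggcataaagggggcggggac

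The letters searched, on both strands, were TGACGTCA for the cyclic AMP response element (CRE), TGACG for the core of it, TGANTCA for AP-1, TTGCNNAA for C/EBP, GGG and CC with 5 free bases between them for NF-kB, TGTGGT for RUNX factors and CACGTG for the E-box. The core lies within the full CRE. Over all 32851 windows of the table, TGANTCA occurred in 6.75%, and among the 8 member windows it occurred in that of Tnfaip6, at bases -142 to -136 from the start. TTGCNNAA occurred in 9.56% of all windows and among the members in that of Ptx3, at bases -57 to -50. The loose NF-kB letters occurred in 45.8% of all windows and in 5 of the 8 member windows, those of Vcan, Cd44, Sdc4, Hyal2 and Itih5, so both members that rose and the one that fell hold them. TGTGGT occurred in 14% of all windows and among the members in that of Hapln1. The CRE, its core and CACGTG, found in 1.55%, 17.8% and 6.02% of all windows, matched in none of the 8 member windows. These matches describe letters in a short window only.

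Of the 10 members, 6 were higher at hCG-6h (Ptx3, Tnfaip6, Cd44, Fn1, Vcan and Hyal2), 1 was lower (Itih5) and 3 did not pass (Hapln1, Sdc4 and Cemip2). Over all 18194 genes, 10.8% were higher and 10.5% were lower, 21.3% together (limma, Benjamini-Hochberg adjusted p under 0.05 over all genes). The median log2 change of the 10 members was 1.26, against 0.0067 over all genes. Since the members were chosen with earlier results of these data known, these shares and medians only describe them. The 3 values of one group lay outside those of the other in 9 members, all but Cemip2, which compares with 37.9% of all genes. By single probe sets, 15 of the 30 were higher, 3 were lower and 12 did not pass, and over all 34958 probe sets with 1 symbol 9.28% were higher and 9.43% were lower, 18.7% together. The arrays measure RNA of the whole sample, so a change in the share of cells that make a transcript and a change of its level per cell cannot be told apart.

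**Figure D1:**
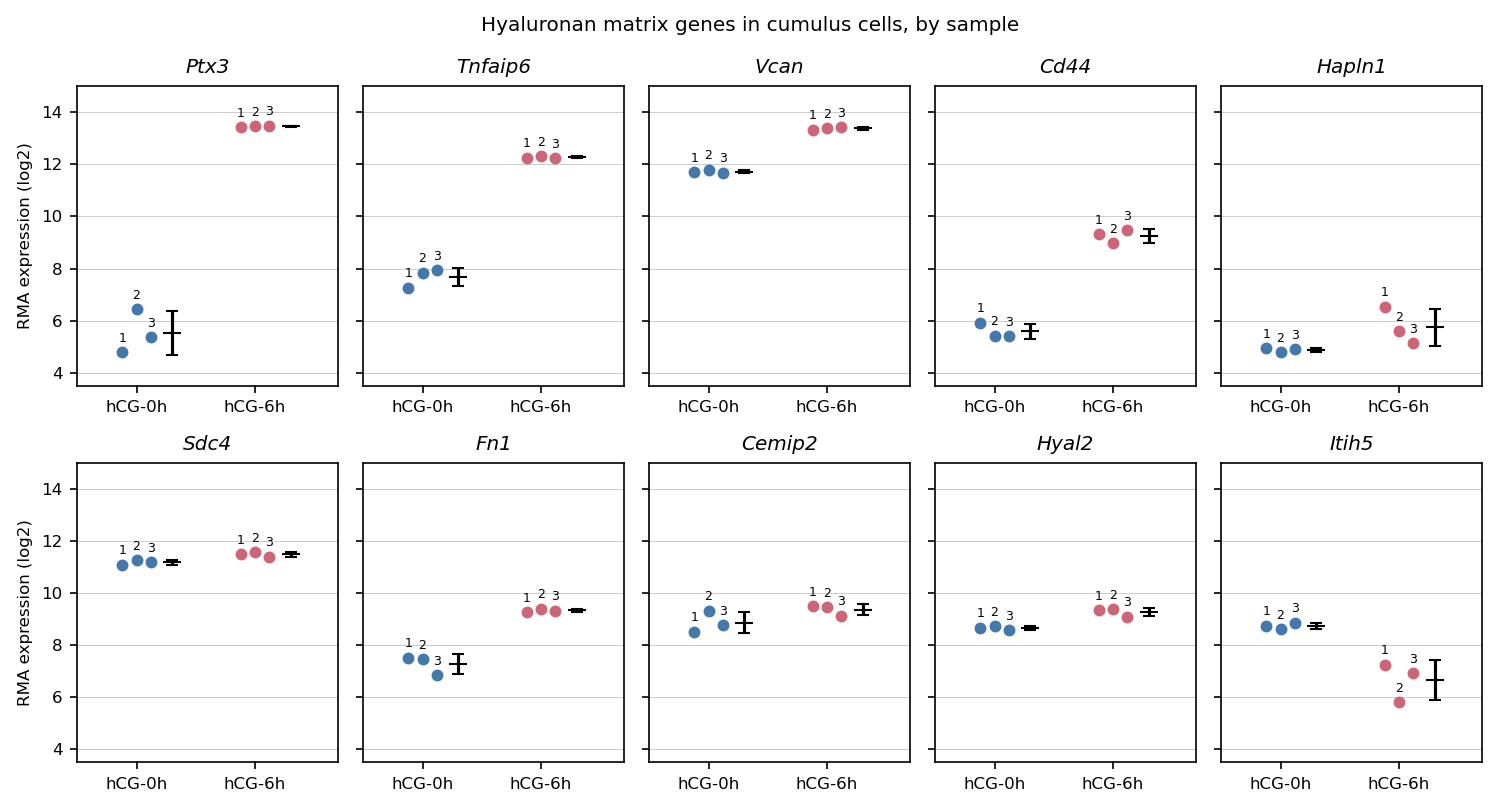
Log2 RMA expression of the 10 genes (vertical axis) in each hCG-0h sample (blue) and each hCG-6h sample (red), with sample numbers above the points and the mean with its SD (n = 3) as a black bar at the right of each group. The hCG-6h values of Ptx3, Tnfaip6, Cd44, Vcan and Fn1 lie far above the hCG-0h values, those of Itih5 lie below, and those of Cemip2 overlap.

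By the probe set taken for each gene, the transcripts of the 2 proteins that build cross-links rose the most of the 10 members. Ptx3 read 4.80, 6.45 and 5.36 on the log2 scale in hCG-0h samples 1, 2 and 3, and 13.42, 13.45 and 13.48 in the hCG-6h samples. The hCG-0h samples were thus spread over more than 1 log2 unit, whereas the hCG-6h samples were nearly equal. The log2 change was 7.91 ± 0.38 (limma SE), about 241-fold and rank 2 among the rises of all genes (adjusted p = 4.93e-05). The hCG-0h mean, 5.54, was under 6.08, the limit set here for dim genes, where RMA compresses differences, so the fold and the rank are approximate. A second probe set of Ptx3, 1456903_at, read 5.92, 5.61 and 6.00 at hCG-0h and 9.03, 9.30 and 9.10 at hCG-6h. Its log2 change was 3.30 ± 0.15 (9.85-fold, limma adjusted p = 5.68e-05), so the direction of the rise was shared by both probe sets and its size was not. By this second probe set Ptx3 rose by less than the 3 Cd44 probe sets that rose (3.67 to 4.24), so its place among the members rests on the probe set. With the mean of both probe sets the log2 change of Ptx3 was 5.61.

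Tnfaip6 was measured by 1 probe set, which read 7.26, 7.84 and 7.93 at hCG-0h and 12.25, 12.31 and 12.23 at hCG-6h. Every hCG-6h sample lay more than 4 log2 units above the highest hCG-0h sample. The log2 change was 4.59 ± 0.19 (24.0-fold, limma adjusted p = 2.68e-05), rank 29 among all rises. At hCG-0h sample 1 was the lowest for Tnfaip6. For Ptx3 the order of the hCG-0h samples differed between its probe sets, with sample 1 lowest in one and sample 2 in the other.

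Among the cell-surface proteins, Cd44 rose and Sdc4 did not pass. Cd44 read 5.92, 5.43 and 5.41 at hCG-0h and 9.31, 8.97 and 9.48 at hCG-6h. The groups were far apart, with a log2 change of 3.67 ± 0.19 (12.7-fold, limma adjusted p = 6.83e-05, rank 77 among all rises), and the fold is approximate since all hCG-0h values were under 6.08. Of its 4 probe sets 3 rose, by 3.67 to 4.24 on the log2 scale. The fourth, 1443265_at, stayed between 4.24 and 4.45 in all 6 samples (log2 change 0.06 ± 0.10), and with the mean of the 4 probe sets the change was 2.98.

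Sdc4, syndecan-4, a heparan sulphate proteoglycan that acts with integrins as a receptor of fibronectin, read 11.08, 11.26 and 11.18 at hCG-0h and 11.49, 11.57 and 11.39 at hCG-6h. The groups did not overlap, but by a narrow margin. The log2 change of 0.31 ± 0.11 did not pass (limma adjusted p = 0.0858), and it passed when the variance was given a trend and a robust prior (adjusted p = 0.0216). Its other probe set showed nearly the same change, 0.31 ± 0.13, and did not pass either (adjusted p = 0.169).

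Of the proteins with Link modules that join the matrix itself, Vcan rose and Hapln1 did not pass. Vcan, whose long core protein carries chondroitin sulphate chains, read 11.69, 11.79 and 11.67 at hCG-0h and 13.32, 13.38 and 13.42 at hCG-6h. Within each group the 3 samples differed by no more than 0.12 (SD 0.06 at hCG-0h and 0.05 at hCG-6h). The log2 change was 1.66 ± 0.10 (3.15-fold, limma adjusted p = 9.02e-05, rank 483). Of the 8 probe sets of Vcan 6 rose, with log2 changes from 1.08 (1433044_at) to 2.39 (1433043_at). The 2 that did not pass, 1447586_at and 1459767_x_at, read between 3.26 and 4.47 in all samples. The sources used here do not tell which versican splice form each probe set reads.

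Hapln1, the link protein that clamps lecticans such as versican to hyaluronan, read 4.94, 4.79 and 4.91 at hCG-0h and 6.53, 5.59 and 5.13 at hCG-6h. The hCG-0h samples were close together and the hCG-6h samples were spread over 1.40 log2 units, with sample 1 highest. The log2 change of 0.87 ± 0.33 did not pass (limma adjusted p = 0.119), but it passed without hCG-6h sample 3 (1.18, adjusted p = 0.0414) and with the mean of its 4 probe sets (0.40, adjusted p = 0.0324). With hCG-6h sample 1, the highest, as the only hCG-6h sample the change was 1.65, and its spread then came from the hCG-0h samples alone. Hapln1 is the 1 member whose mean level over all samples was under 6.08. None of its 4 probe sets passed when all probe sets were fitted on their own (limma, 2 at an unadjusted p under 0.05). Vcan and Hapln1 both lie on chromosome 13, where the Hapln1 window is chr13:89540386-89540635 on the plus strand.

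**Figure D2:**
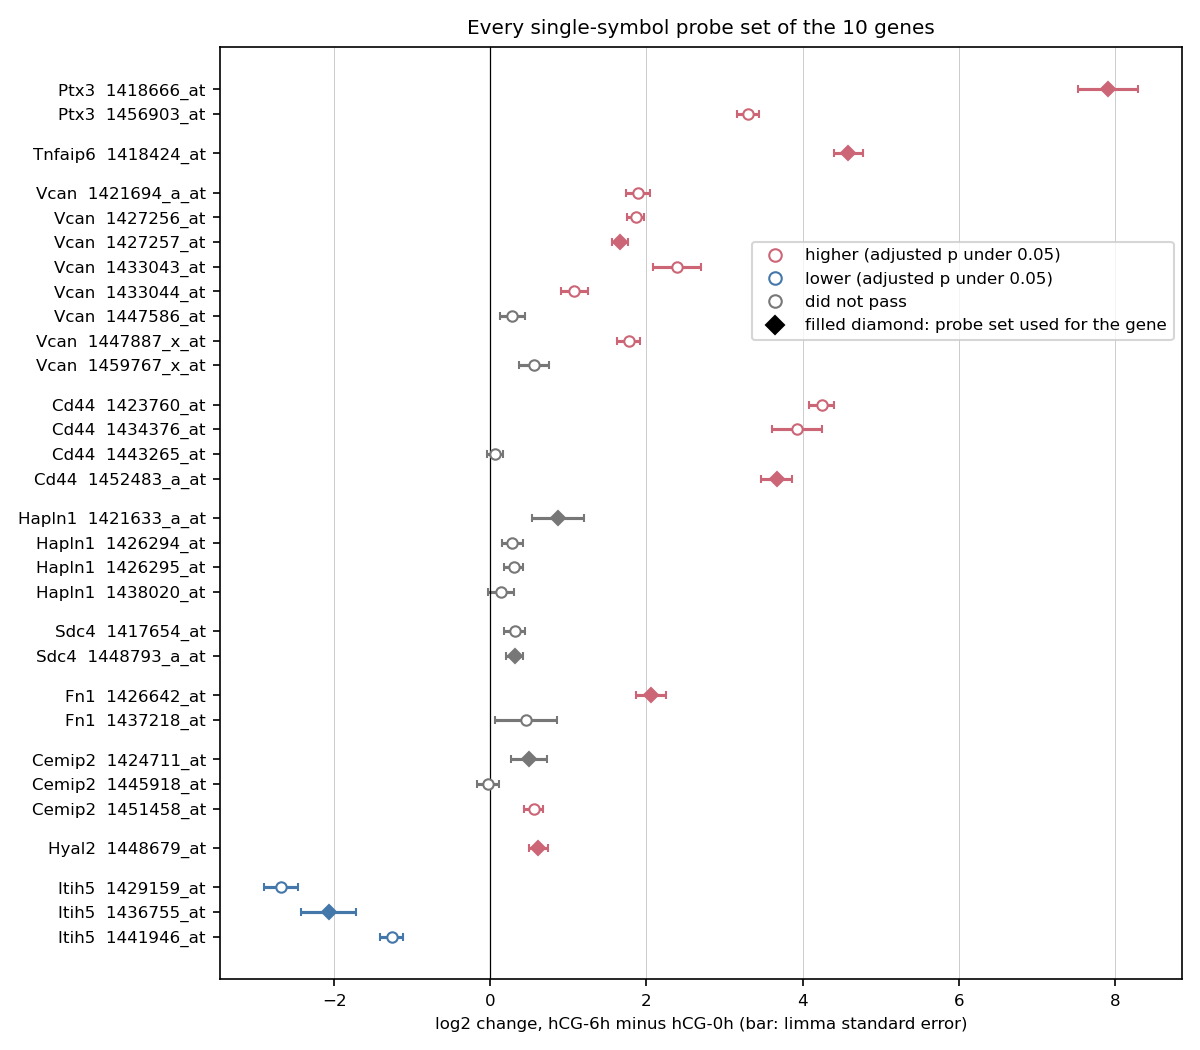
Log2 change, hCG-6h minus hCG-0h (horizontal axis), of each of the 30 probe sets of the 10 genes with limma's standard error as a bar, filled diamonds being the probe set taken for the gene. Probe sets of Itih5 agree in direction, both of Ptx3 lie at 3.30 and 7.91, and 6 of 8 for Vcan and 3 of 4 for Cd44 passed as higher.

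Fn1, fibronectin, the adhesive glycoprotein that cells hold through integrins and syndecans, read 7.51, 7.46 and 6.84 at hCG-0h and 9.27, 9.39 and 9.32 at hCG-6h. Sample 3 was the lowest at hCG-0h, and all hCG-6h samples were nearly alike. The log2 change was 2.06 ± 0.19 (4.16-fold, limma adjusted p = 0.000538, rank 315). The second probe set, 1437218_at, was dim and uneven, from 3.84 to 4.87 at hCG-0h and from 4.17 to 5.42 at hCG-6h, and did not pass (0.46 ± 0.40, adjusted p = 0.502). With the mean of both the log2 change was 1.26 (adjusted p = 0.00205).

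Of the enzymes of hyaluronan breakdown, Hyal2 rose by less than 1 log2 unit and Cemip2 did not pass by the probe set taken for it. Hyal2, a hyaluronidase anchored to the cell surface by a lipid, read 8.67, 8.72 and 8.57 at hCG-0h and 9.34, 9.38 and 9.08 at hCG-6h. The groups did not overlap, and the log2 change of 0.61 ± 0.12 (1.53-fold) passed (limma adjusted p = 0.0125). It passed without each sample in turn in the fit of genes (adjusted p from 0.0136 to 0.045). In the fit of all probe sets the same probe set did not pass without hCG-0h sample 3 (0.058), hCG-6h sample 1 (0.0585) or hCG-6h sample 2 (0.0595), all adjusted p. Nor did the gene pass with hCG-6h sample 1 as the only hCG-6h sample (0.69, adjusted p = 0.0772).

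Cemip2, also called Tmem2, a transmembrane protein that cuts hyaluronan outside the cell, read 8.51, 9.31 and 8.76 at hCG-0h and 9.50, 9.45 and 9.12 at hCG-6h. The groups overlapped, since hCG-0h sample 2 lay above hCG-6h sample 3. The log2 change of 0.50 ± 0.22 did not pass (limma adjusted p = 0.177) and did so without hCG-0h sample 2 (0.72, adjusted p = 0.0399). A second probe set, 1451458_at, read 8.19, 8.49 and 8.28 against 8.93, 8.94 and 8.75, without overlap. It passed (0.55 ± 0.13, adjusted p = 0.0267), though not with the sample number as a replicate block (adjusted p = 0.0566), nor when any 1 of 4 samples was left out, namely samples 1 and 3 of hCG-0h and samples 1 and 2 of hCG-6h (adjusted p from 0.0673 to 0.0839). The third, 1445918_at, read 3.86 to 4.23 in all samples.

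Itih5, a relative of the heavy chains of inter-alpha-trypsin inhibitor, was the member that fell. It read 8.74, 8.61 and 8.86 at hCG-0h and 7.25, 5.81 and 6.93 at hCG-6h. The hCG-0h samples were close together, and at hCG-6h sample 2 stood more than 1 log2 unit below the others. The log2 change was -2.07 ± 0.35, 4.21-fold lower at hCG-6h (limma adjusted p = 0.00712), rank 188 among all falls, and it was -1.49 with hCG-6h sample 1 alone. All 3 probe sets of Itih5 fell, with log2 changes of -2.68 (1429159_at), -2.07 and -1.27 (1441946_at), and none of them overlapped between the groups. The sizes -2.07 and -2.68 are approximate. In the probe set taken for the gene hCG-6h sample 2 was under 6.08, and in 1429159_at all hCG-6h samples were (5.03, 5.60 and 5.41).

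**Figure D3:**
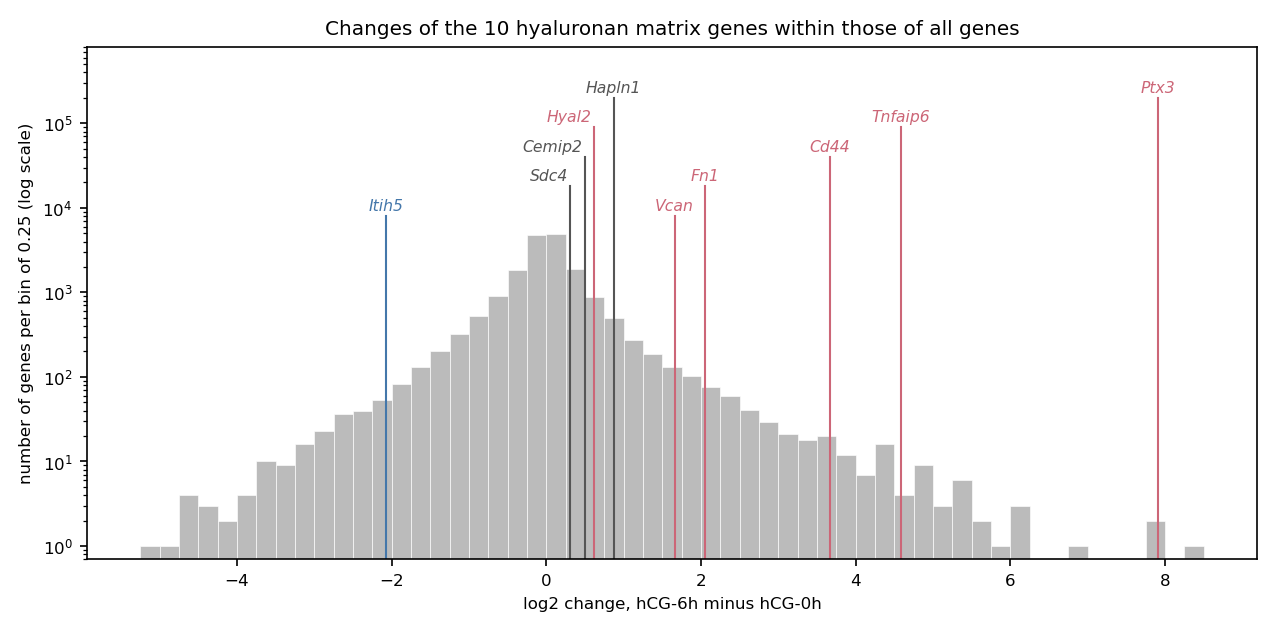
Number of genes (vertical axis, log scale) in each bin of 0.25 of log2 change, hCG-6h minus hCG-0h (horizontal axis), with the 10 genes as lines, red if higher, blue if lower and dark grey if they did not pass. Ptx3 at 7.91 lies near the right end and Itih5 at -2.07 on the left flank, while Sdc4, Cemip2, Hyal2 and Hapln1 lie between 0.31 and 0.87.

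The spread between samples differed from member to member and between the groups. At hCG-6h the SD over 3 samples was 0.03 for Ptx3, 0.04 for Tnfaip6, 0.05 for Vcan and 0.06 for Fn1. It was 0.71 for Hapln1 and 0.76 for Itih5. At hCG-0h the largest SD was that of Ptx3, 0.84. Pooled over the groups, the median SD of all genes was 0.185, and those of Ptx3, Itih5 and Hapln1 were 0.594, 0.542 and 0.508.

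Other genes that make, carry or bind hyaluronan, or that partner with these proteins, moved in part. Of 49 such genes measured, in 9 lists without any member, 14 were higher, 2 were lower and 33 did not pass (limma, adjusted over all genes). Over all genes 10.8% were higher and 10.5% were lower. The median log2 change of the 49 was 0.08, against 0.0067 over all genes. The genes that did not pass lay between -0.78 and 0.39. The lists, like the members, were chosen with earlier results of these data known.

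Among the enzymes that make hyaluronan, 2 of 4 rose, Has2, a synthase, by 3.26 ± 0.15 on the log2 scale (limma adjusted p = 4.41e-05) and Ugdh, which makes a sugar precursor, by 1.75 ± 0.13 (adjusted p = 0.000217). The other synthases of the list did not pass. A second probe set of Has2, 1418678_at, rose by 4.77 ± 0.23, so the direction was shared by both and the size was not. The chains of inter-alpha-trypsin inhibitor, which reach the follicle largely from blood, did not pass as higher. Of the 5 measured, Itih2 was the 1 that passed and was lower (-0.70 ± 0.19, adjusted p = 0.0387), a call that ended without any 1 of 5 samples, all but hCG-0h sample 2. All of the 5 read between 4.81 and 6.70 in every sample. None of 6 other link proteins and lecticans passed (limma, 0 at an unadjusted p under 0.05), their log2 changes lying between -0.09 and 0.08. Of 4 other hyaluronan receptors Lyve1, best known from lymphatic vessels and some macrophages, rose, from 5.83, 5.34 and 5.49 at hCG-0h to 8.42, 7.31 and 7.88 at hCG-6h (log2 change 2.32 ± 0.28, limma adjusted p = 0.00185). The size is approximate, since all its hCG-0h values were under 6.08. None of 6 other hyaluronidases passed (limma, 1 at an unadjusted p under 0.05). Most of them read under 6.08 in every sample, where changes are compressed, so a change may have been missed.

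Relatives of Sdc4 and receptors of Fn1 at the cell surface rose in part. Of 7 syndecans and glypicans 4 rose, among them Sdc1, syndecan-1, which read 10.59, 10.43 and 10.48 against 13.43, 13.37 and 13.42 (log2 change 2.91 ± 0.10, limma adjusted p = 1.49e-05), and Gpc1, glypican-1, by 2.09 ± 0.27 (adjusted p = 0.00243). Thus Sdc1 rose in the samples in which Sdc4 differed by 0.31, though the difference between their changes was not tested. Of 5 integrin subunits that bind fibronectin 3 rose, Itga5 by 4.15 ± 0.18 and Itgb3 by 2.14 ± 0.15 as the largest (adjusted p = 3e-05 and 0.00017). Other probe sets of these genes did not all pass: 3 of 4 passed for Itga5 and 1 of 2 for Itgb3.

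Proteases that cut versican went both ways. Adamts5 fell from 9.35, 9.86 and 10.49 to 7.05, 7.17 and 7.02 (log2 change -2.82 ± 0.27, limma adjusted p = 0.000635). Adamts4 rose by 1.60 ± 0.36 (adjusted p = 0.022), a call lost without any 1 of 5 samples, all but hCG-6h sample 2 (adjusted p from 0.0542 to 0.0704). The hCG-0h values of Adamts4, 4.44 to 4.91, were under 6.08, so this size is approximate too. In all, 2 of 6 such proteases passed as higher, 1 as lower and 3 did not pass. The other that was higher, Adamts1, named after its values were seen, changed by 0.50 ± 0.12 (adjusted p = 0.026) and lost its call with the replicate block (adjusted p = 0.0796) and without any 1 of 5 samples, all but hCG-0h sample 1 (adjusted p from 0.054 to 0.0791). Of 6 matrix partners, Fgf2, a growth factor that PTX3 binds, rose by 4.25 ± 0.24 (limma adjusted p = 8.64e-05) by its 1 probe set. Its hCG-0h values, 3.88 to 4.67, were under 6.08, so the size is approximate. Tnc, tenascin-C, rose by 2.54 ± 0.22 by the probe set taken for it (adjusted p = 0.000401), but its second probe set, 1456344_at, went from 5.77, 6.66 and 7.97 down to 4.06, 4.51 and 4.43, so the direction of Tnc rests on the probe set.

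**Figure D4:**
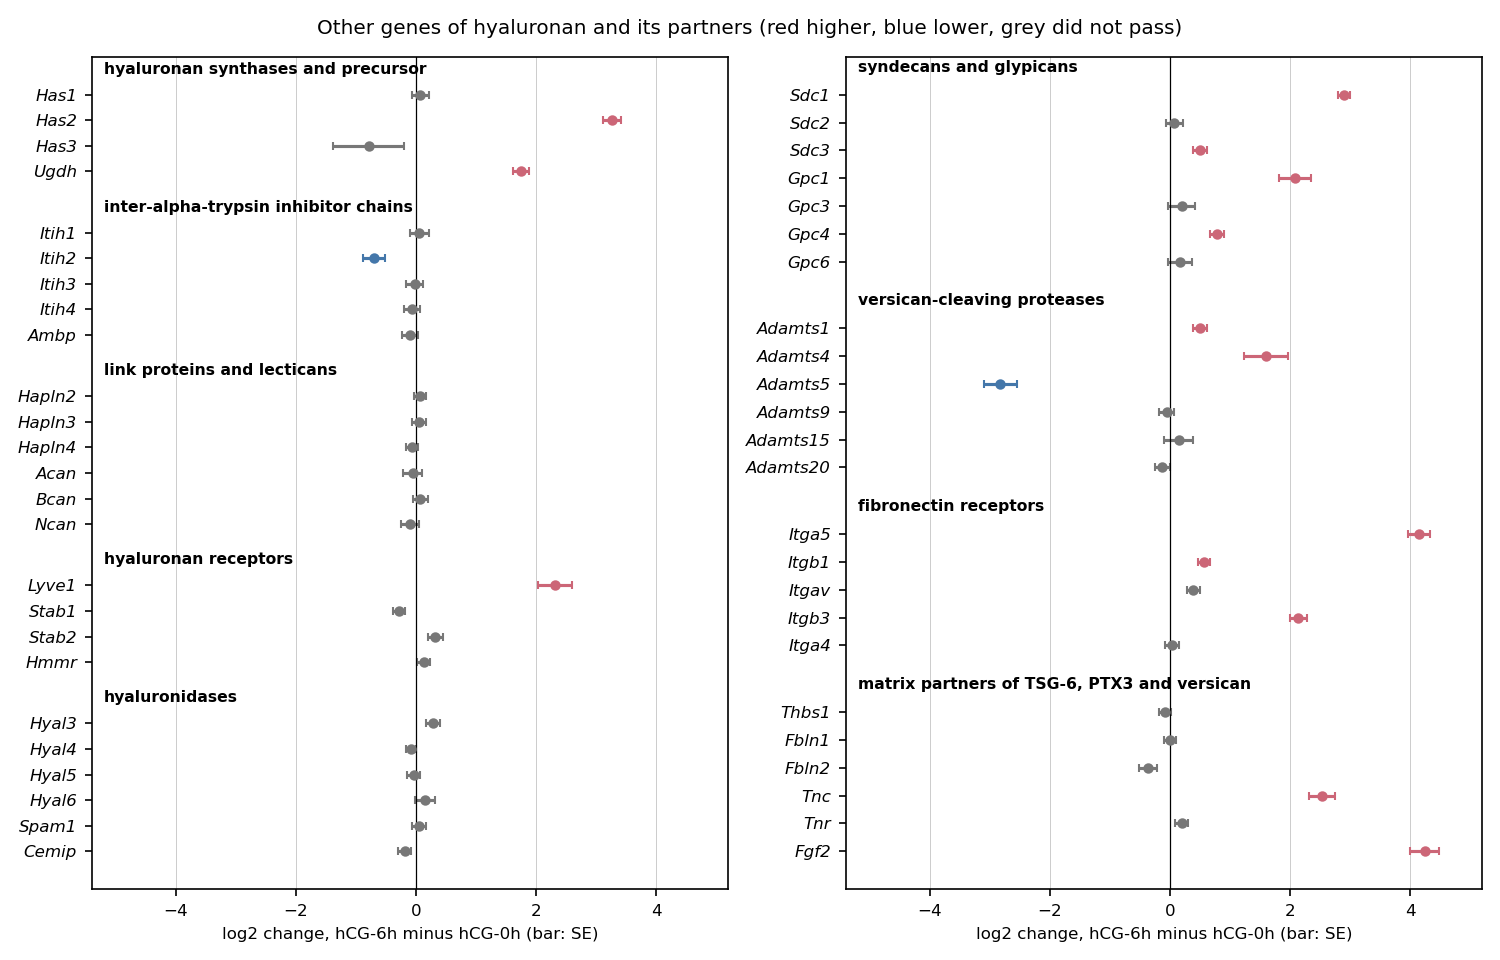
Log2 change, hCG-6h minus hCG-0h (horizontal axis), of 49 other genes of hyaluronan and its partners in 9 lists, with limma's standard error as a bar, red for higher, blue for lower and grey for genes that did not pass. Has2, Sdc1, Itga5 and Fgf2 stand to the right, Adamts5 to the left, and link proteins, lecticans and hyaluronidases lie near 0.

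Of 9 cumulus and granulosa markers measured, Inha read 13.36 to 13.49 and Foxl2 9.47 to 10.40 over all samples. There were 5 markers that passed as lower, among them Fshr, from 11.41 to 11.52 at hCG-0h down to 8.15 to 8.34 at hCG-6h, and Slc38a3, from 8.99 to 9.47 down to 5.50 to 5.70. Some members are also made by leukocytes and vessels, so those markers are given beside them. Of 10 leukocyte markers 1 passed (limma, 3 at an unadjusted p under 0.05), Cd52, which was higher (log2 change 1.00, adjusted p = 0.00658). The summed linear level of the 10 was 510.8 to 637.2 at hCG-0h and 629.3 to 707.1 at hCG-6h, which overlapped. Their log2 changes lay between -0.36 (Lyz2) and 1.00, with a median of 0.11. Cd3e read 4.73 to 4.94 and 5.33 to 6.45, without overlap (log2 change 0.93). Ptprc, the pan-leukocyte marker CD45, read 5.30 to 5.65 and 5.62 to 6.00, and the macrophage marker Adgre1 4.14 to 4.38 and 4.11 to 4.36. None of 6 endothelial markers passed (limma, 2 at an unadjusted p under 0.05), but their sum was 209.1 to 345.3 at hCG-0h and 387.4 to 594.1 at hCG-6h, without overlap. Cdh5 read 5.74 to 7.52 and 7.73 to 8.63, the largest log2 change of the 6 (1.63). Kdr changed by 0.67, Tek by 0.21 and Cldn5 by 0.05, whereas Pecam1 (-0.20) and Emcn (-0.10) went down, so the 6 markers did not move together. Of 11 oocyte markers none passed (limma, 2 at an unadjusted p under 0.05), but their sum was 405.8 to 528.0 and 566.3 to 635.6, also without overlap. Their log2 changes lay between -0.06 and 0.96, with a median of 0.10. The largest was that of Dppa3, which read 6.15 to 7.44 at hCG-0h and 7.52 to 7.83 at hCG-6h, whereas Zp2 read 3.56 to 3.77 in every sample. Of 6 theca and stroma markers Ptch1 passed as lower (sums 1515.0 to 1687.9 and 1045.4 to 1202.8, without overlap). Ptch1, the brightest of the 6 in every sample, weighs most in these sums and read 9.87 to 10.04 and 8.86 to 9.22. Acta2 (-0.82) and Cyp17a1 (-0.0033) also went down, whereas Pdgfra (0.44), Pdgfrb (0.26) and Col1a1 (0.08) went up, so the 6 did not move together. Of 6 markers of the ovarian surface none passed (limma, 2 at an unadjusted p under 0.05), with sums of 1500.2 to 1701.7 and 1085.9 to 1660.6, which overlapped. The part of other cell types in the changes of the members was not tested.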

How the data were processed

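Total RNA was amplified, labelled with biotin and hybridised, 1 sample per array (labels' protocols). The authors deposited log2 expression of 45101 probe sets. Per the submitters' processing notes they used Affymetrix Expression Console 1.1, GCOS and RMA, which corrects background, equalises the arrays and summarises probes, and which pulls dim values to a floor and so compresses changes of dim genes. Array medians ran from 6.43 to 6.46. Detection calls were not used here, and no build is given for the array values; promoter windows are those of RefSeq's GRCm38.p6. Precision is limited by the 6 arrays.

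Of all probe sets, 34958 had 1 symbol in the platform's table. Each of 18194 genes was read from its probe set of highest mean level, and all 34958 were also fitted on their own. Groups were compared with limma 3.58.1 in R 4.3.3 (lmFit, eBayes, group only, two-sided, Benjamini-Hochberg over all features, threshold 0.05), after tests on simulated data. Changes are hCG-6h minus hCG-0h with limma's SE, and folds are 2 to that power. Summed marker levels are sums of 2 to the log2 value.

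Named are the 10 members and, from 9 lists, genes past the threshold with a log2 change of at least 1 in size; Itih2, Adamts1 and the marker genes were named after their values were seen. Members and lists were chosen with earlier results of these data known. Hyal1, Fbn1, Cyp19a1, H1foo, Insl3 and Lhcgr of the lists, and protein sequences, were not analysed here. Deviations of same-numbered samples correlated at 0.012, -0.016 and 0.029 over genes, and those of other pairs at -0.035 to 0.023. No shared deviation was seen, which cannot tell whether same-numbered samples were collected or run together. Other settings were a replicate block, trend and robust variance, renewed quantile normalisation, centring, leaving out dim genes, array weights, the mean of probe sets, hCG-6h sample 1 alone and each sample left out in turn.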

Additional observations from a re-analysis of the deposited data

How the results depend on the processing

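The count of 7 members passing (6 higher and 1 lower) was 7 or 8 under every alternative run, and each member kept its direction wherever it was fitted, Hapln1 being removed when dim genes were left out. Ptx3, Tnfaip6, Vcan, Cd44, Fn1 and Itih5 passed under each alternative. Without 1 sample in turn, Hapln1 ranged from 0.48 to 1.18 (passing without hCG-6h sample 3) and Cemip2 from 0.322 to 0.722 (passing without hCG-0h sample 2). Sdc4 passed with trend and robust variance (0.31), and Hapln1 with the mean of probe sets (0.396). With hCG-6h sample 1 alone, where the spread comes from hCG-0h alone, Hapln1 passed (1.65), Hyal2 did not (0.687), and 1576 genes passed in place of 3873. Otherwise the causes were not tested. With the sample number as a replicate block, 7 members, 17 in place of 18 of their probe sets, 14 in place of 16 other hyaluronan genes and 3264 genes passed, and a probe set of Cemip2 lost its call; same-numbered samples did not deviate together. The other hyaluronan genes passing numbered 11 to 17 over all alternatives. The low level of Hapln1, near the dim end of the arrays, limits what can be said of it.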
